A study of Mus musculus with 29 samples.

Results

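The genes described here are 9 markers of pericytes and vascular smooth muscle cells, taken from the deposited table by gene symbol: Pdgfrb, Rgs5, Kcnj8, Abcc9, Vtn and Anpep for pericytes, and Acta2, Myh11 and Tagln for smooth muscle. Each has 1 row among the 36172 gene rows, and the choice rests on their names and not on a threshold on any measured value. They were followed through 29 RNA libraries from the brains of NuTRAP mice, in which a Cre-dependent transgene tags ribosomes with EGFP-L10a so that the RNA they carry can be pulled down with an antibody against GFP (translating ribosome affinity purification, TRAP). The Aldh1l1-NuTRAP mice (Aldh1l1-Cre/Ert2+; NuTRAP+) carry the tag in astrocytes and the Cx3cr1-NuTRAP mice (Cx3cr1-Cre/Ert2+; NuTRAP+) carry it in microglia and other cells of the macrophage lineage. All mice carried both Cre and the transgene, and recombination had been induced when they were roughly 3 months old with 5 daily doses of 100 mg/kg tamoxifen. From 3 Aldh1l1-NuTRAP mice the bead-bound positive and the unbound negative fraction were analysed. From 6 Cx3cr1-NuTRAP mice the positive fraction, the negative fraction and the input were analysed, and from 5 of these 6 also whole tissue. The input is the supernatant of the homogenate of a hemisected brain, spun at 12000 g for 10 minutes, whereas whole tissue is RNA extracted from brain without that step. The labels give the fraction as whole tissue but title these libraries Slice, and do not say which slice of brain was taken, so the piece and the clearing spin cannot be told apart in any comparison with it.

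Pericytes and smooth muscle cells are the mural cells of blood vessels. Pericytes are embedded in the basement membrane of capillaries, depend on PDGF-B released by endothelial cells and help to maintain the blood-brain barrier, and smooth muscle cells ring arteries and arterioles and set their diameter with a contractile machinery of smooth muscle actin and myosin. Neither cell type is the one tagged in these lines. Together with endothelial cells they form the vessel wall, which is tied together by basement membrane.

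Total counts ranged from 4260949 to 26857866 per library, and the lowest belongs to the whole tissue of mouse 210. That library also lay nearer to the inputs than the other whole tissue libraries on the second principal component of all libraries, at -12.4 against -43.2 to -34.6, with inputs at -25.8 to -12.3. Of the Aldh1l1-NuTRAP mice, mouse 290 had the lowest totals, 8782235 in the negative and 11910851 in the positive fraction. Its libraries lay at 21.1 and 35 on that component, against -12.9 to -5.4 in the other mice of the line. The positive fractions held their own cell types. All 5 astrocyte markers were higher in the positive than in the negative fraction of Aldh1l1-NuTRAP mice, with a median log2 fold change of 3.23, and all 5 microglial markers in Cx3cr1-NuTRAP mice, with a median of 3.57. Levels are given as counts scaled to a library total of 1000000 (CPM), and fold changes and adjusted p-values are from the quasi-likelihood test of edgeR with Benjamini-Hochberg adjustment over all genes tested, called at an adjusted p under 0.05.

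Acta2, smooth muscle alpha actin and the usual marker of the contractile layer, is listed at 0 in all 29 libraries. It lies on the minus strand at chr19:34241091-34255336 (mm10). Beta actin (Actb) averaged 1063 ± 38.7 CPM (SD, n = 6) in the inputs. Of the other muscle actins, Acta1 averaged 5.57 ± 1.08 CPM and Actg2 had 0 to 6 counts per library in the same inputs. Of the 1994 windows of 42 bases in the longest GENCODE transcript of Acta2, 25.6% matched a transcript of Acta1, Actc1, Actg2, Actb or Actg1 at 90% identity or better, the alignment limit of the study, and 74.4% did not. A value of 0 in this table can be a failed estimate, so no statement on the amount of Acta2 RNA is made. The other 8 genes passed the filter on low counts, in at least 1 of the groups compared, in all comparisons, and the counts below are of those 8.

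Rgs5, Kcnj8 and Abcc9 mark pericytes and act on their excitability. Rgs5 shortens signalling through G proteins, and Kcnj8 (Kir6.1) is the pore and Abcc9 (SUR2) the regulatory subunit of the ATP-sensitive potassium channel of vascular cells. Rgs5 is at chr1:169655501-169693526 on the plus strand. Kcnj8, at chr6:142564939-142571356, and Abcc9, at chr6:142587862-142702274, are neighbours on the minus strand, and the second overlaps the row 5330439B14Rik on the opposite strand. The promoters of these 3 genes, which were all lower in input than in whole tissue, are shown as listed by RefSeq for GRCm38.p6, from 250 bases before to 50 bases after the start, at chr1:169655251-169655550, chr6:142571565-142571864 and chr6:142702225-142702524. Capitals mark a CCAAT box or a GC box on either strand.
Rgs5: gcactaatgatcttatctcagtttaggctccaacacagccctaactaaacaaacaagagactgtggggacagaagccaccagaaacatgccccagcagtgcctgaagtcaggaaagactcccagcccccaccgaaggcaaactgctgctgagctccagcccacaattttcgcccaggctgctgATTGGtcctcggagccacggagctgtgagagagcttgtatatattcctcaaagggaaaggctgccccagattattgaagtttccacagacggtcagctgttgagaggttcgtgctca
Kcnj8: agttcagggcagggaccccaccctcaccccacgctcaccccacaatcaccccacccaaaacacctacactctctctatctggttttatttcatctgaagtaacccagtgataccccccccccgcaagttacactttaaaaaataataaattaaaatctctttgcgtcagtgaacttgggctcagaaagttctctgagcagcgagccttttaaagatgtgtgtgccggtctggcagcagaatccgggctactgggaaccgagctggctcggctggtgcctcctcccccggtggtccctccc
Abcc9: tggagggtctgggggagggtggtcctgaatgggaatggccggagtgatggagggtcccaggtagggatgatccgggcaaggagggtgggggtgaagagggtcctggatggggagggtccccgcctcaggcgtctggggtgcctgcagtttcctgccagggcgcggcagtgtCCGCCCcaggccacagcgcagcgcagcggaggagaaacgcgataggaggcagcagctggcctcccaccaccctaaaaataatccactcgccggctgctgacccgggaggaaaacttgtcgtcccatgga
The motifs searched on both strands were the TATA box TATAAA, the CCAAT box, the GC box GGGCGG and the CArG box bound by serum response factor. In the 3 promoters printed no match overlapped another, while that of Vtn held 2 overlapping TATA box matches, at -137 to -132 on the opposite and -135 to -130 on the same strand. Rgs5 held 1 CCAAT box, on the opposite strand at -67 to -63, Abcc9 held 1 GC box, on the opposite strand at -79 to -74, and Kcnj8 held none of the motifs. Of all 32851 promoters in the RefSeq table, 37.4% held CCAAT, 35.7% held GGGCGG, 13.6% held TATAAA and 1.63% held a CArG box. The table held 6 of the 9 genes, and Pdgfrb, Myh11 and Tagln are without an entry in it.

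Input, the cleared homogenate from which TRAP starts, was compared with whole tissue. Of the 8 genes tested, 6 were lower in input and none was higher, where 14.2% of all 13608 genes tested were lower and 16.3% higher. Myh11 fell most, followed by Rgs5, Tagln, Abcc9, Kcnj8 and Pdgfrb, and Vtn and Anpep were not called. The median log2 fold change of the 8 was -0.94, against 0.00 over all genes tested. For 3 of the 8, Rgs5, Abcc9 and Myh11, all inputs lay below all whole tissue libraries, which was so for 5.61% of all genes tested. In bulk RNA, fewer cells of a type and less RNA per cell cannot be told apart.

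Rgs5 stood at 54.0, 46.6, 43.6, 24.8 and 41.5 CPM in the whole tissue of mice 192, 194, 209, 210 and 277, and between 13.2 and 19.2 CPM in the 6 inputs, with a median of 17.7. The ranges did not overlap, and the shallow library of mouse 210 was the lowest of whole tissue. By the fit, Rgs5 was 2.55-fold lower in input (log2 fold change -1.35, SE 0.15, adjusted p = 6.4e-05), and without that library the log2 fold change was -1.47 (SE 0.11, adjusted p = 2.7e-07). Rgs5 was lower in input in 5 of 5 mice that had both libraries.

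Abcc9 measured 21.8, 17.0, 14.6, 14.7 and 14 CPM in whole tissue, in the same order of mice, and from 6.74 to 9.73 CPM in the inputs, with a median of 7.35. No input reached the lowest whole tissue library. The log2 fold change was -1.10 (SE 0.14, adjusted p = 9.6e-05), a 2.14-fold difference. Kcnj8, its channel partner, measured 6.90, 3.94, 5.86, 10.6 and 5.36 CPM in whole tissue and 2.57 to 4.27 CPM in the inputs, with a median of 3.64. Here the ranges overlapped, as the whole tissue of mouse 194 fell among the inputs and that of mouse 210 was the highest at only 45 counts. Kcnj8 was 1.72-fold lower in input (log2 fold change -0.78, SE 0.21, adjusted p = 0.013), and the call was lost without mouse 192 (log2 fold change -0.74, adjusted p = 0.059).

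The ATP-sensitive channel of neurons is built from the related subunits Kcnj11 and Abcc8. Abcc8 was higher in input, at 40.4 against 29.5 CPM in whole tissue (log2 fold change 0.48, SE 0.11, adjusted p = 0.0034). Kcnj11 was not called, at 56.9 against 49.5 CPM (log2 fold change 0.20, SE 0.07, adjusted p = 0.053).

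Myh11, the heavy chain of smooth muscle myosin, lies at chr16:14194527-14291408 on the minus strand. It measured 12.0, 14.6, 12.4, 8.52 and 13 CPM in whole tissue and 1.12 to 2.36 CPM in the inputs, with a median of 1.97. Each whole tissue library was above every input, and Myh11 was lower in input in 5 of 5 mice. It was 6.39-fold lower in input (log2 fold change -2.68, SE 0.18, adjusted p = 3.2e-06). The non-muscle myosin heavy chains Myh9, Myh10 and Myh14 were not called between the same libraries, with log2 fold changes of -0.06, -0.05 and 0.00 and adjusted p-values of 0.62 to 0.99.

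Tagln (transgelin), an actin-binding protein of smooth muscle, lies at chr9:45929628-45936058 on the minus strand and overlaps Pcsk7 on the plus strand. It measured 8.51, 6.95, 11.5, 4.06 and 9.59 CPM in whole tissue and 2.87 to 4.56 CPM in the inputs, with a median of 3.84. Whole tissue of mouse 210, at 17 counts, was the only library of its group within the range of the inputs. Tagln was 2.27-fold lower in input (log2 fold change -1.18, SE 0.20, adjusted p = 0.00068), and -1.30 on the log2 scale without that library (SE 0.16, adjusted p = 2.4e-05).

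Pdgfrb, the receptor for PDGF-B, differed least of the 6. It measured 30.0, 26.9, 27.5, 25.8 and 27.4 CPM in whole tissue and 19.6 to 26.7 CPM in the inputs, with a median of 22.4. The ranges overlapped, and the log2 fold change was -0.27 (SE 0.09, adjusted p = 0.029). With the mouse as a block the call was lost, at -0.23 and an adjusted p of 0.1, as it was without mouse 192, 194 or 277, with adjusted p-values of 0.094, 0.094 and 0.08. It was also lost with no filter on low counts (adjusted p = 0.059) and with all 6 groups in one fit (adjusted p = 0.064).

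Vtn and Anpep did not pass the test. Vtn (vitronectin, an adhesive glycoprotein of plasma and basement membrane) is at chr11:78499120-78502325 on the plus strand and measured 60.5 to 88.1 CPM in whole tissue against 70.5 to 85.7 in the inputs. Its log2 fold change was 0.02 (SE 0.08, adjusted p = 0.86). Anpep (aminopeptidase N, CD13, a surface peptidase of pericytes) is at chr7:79821803-79842352 on the minus strand and measured 2.70 to 4.42 CPM in whole tissue against 3.15 to 5.10 in the inputs. It was higher in input in 5 of 5 mice, with a log2 fold change of 0.30 (SE 0.18, adjusted p = 0.21).

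**Figure D1:**
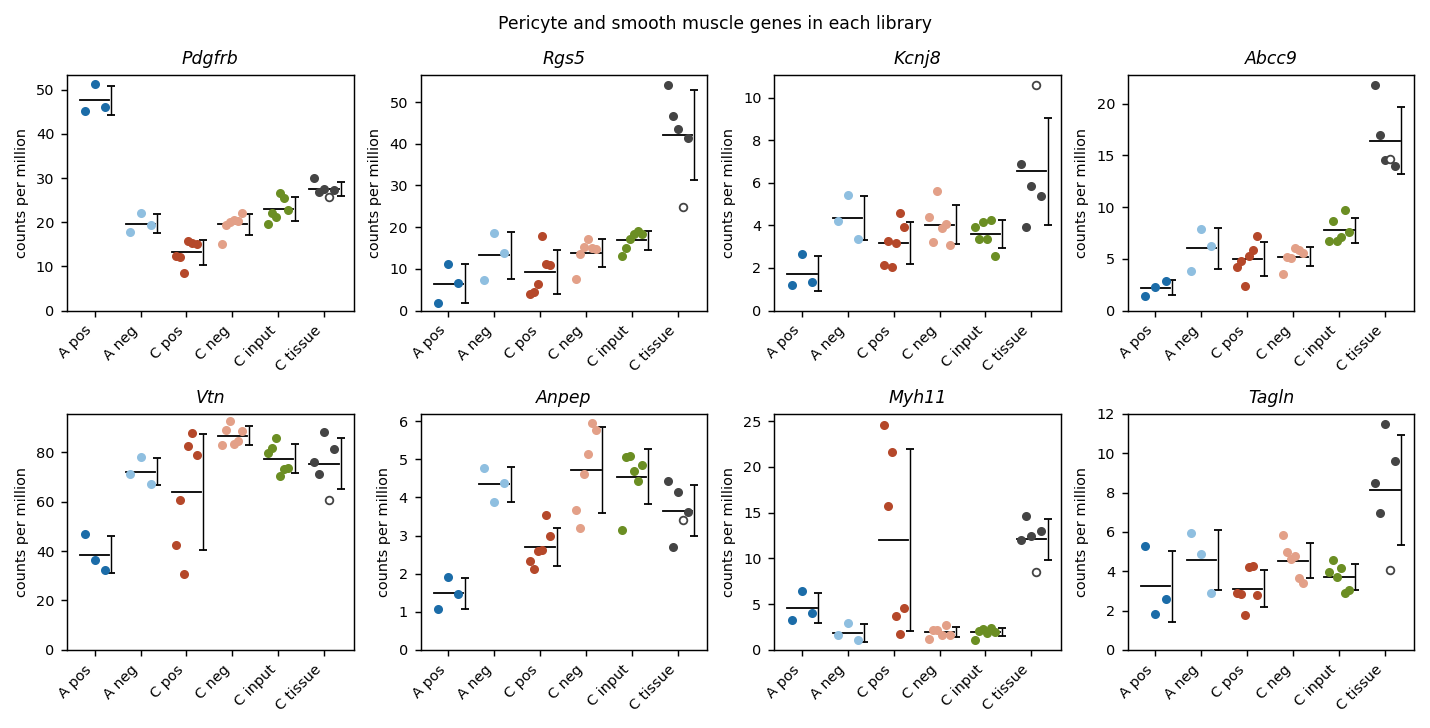
CPM (vertical axis) of 8 genes in each library, for the positive and negative fractions of Aldh1l1-NuTRAP mice (A pos, A neg) and the positive fraction, negative fraction, input and whole tissue of Cx3cr1-NuTRAP mice (C pos, C neg, C input, C tissue). Points are libraries, horizontal lines are means and error bars are SDs, and the open point is the shallow whole tissue library of mouse 210. Pdgfrb was highest in the Aldh1l1-NuTRAP positive fraction at 45.2 to 51.3 CPM, Rgs5 in whole tissue at 24.8 to 54.0 CPM, and Myh11 spread from 1.79 to 24.6 CPM in the Cx3cr1-NuTRAP positive fraction.

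Beyond these genes, 12 of 15 other pericyte genes could be tested. Of the 12, 5 were lower in input and none higher, with a median log2 fold change of -0.48. They were Notch3, the receptor that maintains mural cells (-0.97, SE 0.18, adjusted p = 0.0015), its target Heyl (-0.56, SE 0.13, adjusted p = 0.0048), the ATPase Atp13a5 (-0.65, SE 0.16, adjusted p = 0.0064), P2ry14 and Ndufa4l2. Of 18 other smooth muscle genes 9 were tested, and 4 were lower and 1 higher. Lower were the contractile regulator smoothelin (Smtn, -0.66, SE 0.12, adjusted p = 0.0012), Sncg (-1.36, SE 0.26, adjusted p = 0.0024), desmin (Des) and the myosin light chain Myl9. Tropomyosin 1 (Tpm1), which many cell types express, was the 1 that was higher (0.31, SE 0.08, adjusted p = 0.012). Without the whole tissue library of mouse 210, 8 of 12 testable smooth muscle genes were lower and 1 higher, and 7 of 14 testable pericyte genes were lower. The genes testable only in that fit met the filter through whole tissue alone. With the mouse as a block, 3 of the pericyte genes and 2 of the smooth muscle genes were lower, and 1 smooth muscle gene was higher. The shares over all genes in these 2 fits are not given here.

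Endothelial genes moved in the same direction, and all 19 were lower in input, with a median log2 fold change of -1.19. The transporter Abcb1a went from 51.8 to 16.8 CPM (log2 fold change -1.65, SE 0.13, adjusted p = 1.2e-05). Their summed level was 501 to 878 CPM in whole tissue and 350 to 392 in the inputs. Genes of other cell types also differed between the same libraries, and their part in the mural genes' difference was not tested. All 7 oligodendrocyte genes were lower in input (median log2 fold change -0.49), 5 of 10 genes of fibroblasts and meninges were higher (median 0.40), 3 of 8 choroid plexus genes were higher (median 0.70), 4 of 7 neuronal genes were higher and 1 lower (median 0.34), 3 of 5 nuclear noncoding RNAs were higher and 1 lower (median 0.56), and 1 of 5 astrocyte genes was lower (median -0.14). None of the 5 microglial, 3 testable border macrophage or 4 testable erythrocyte genes was called, with medians of -0.12, 0.10 and 0.05. Over all genes, the 4144 calls of this comparison fell to 2726, 2549 and 2587 without mouse 192, 194 or 209. Without the whole tissue of mouse 210, all 19 endothelial genes were again lower, whereas 3 astrocyte genes were lower and 1 higher and 1 microglial gene was higher.

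**Figure D2:**
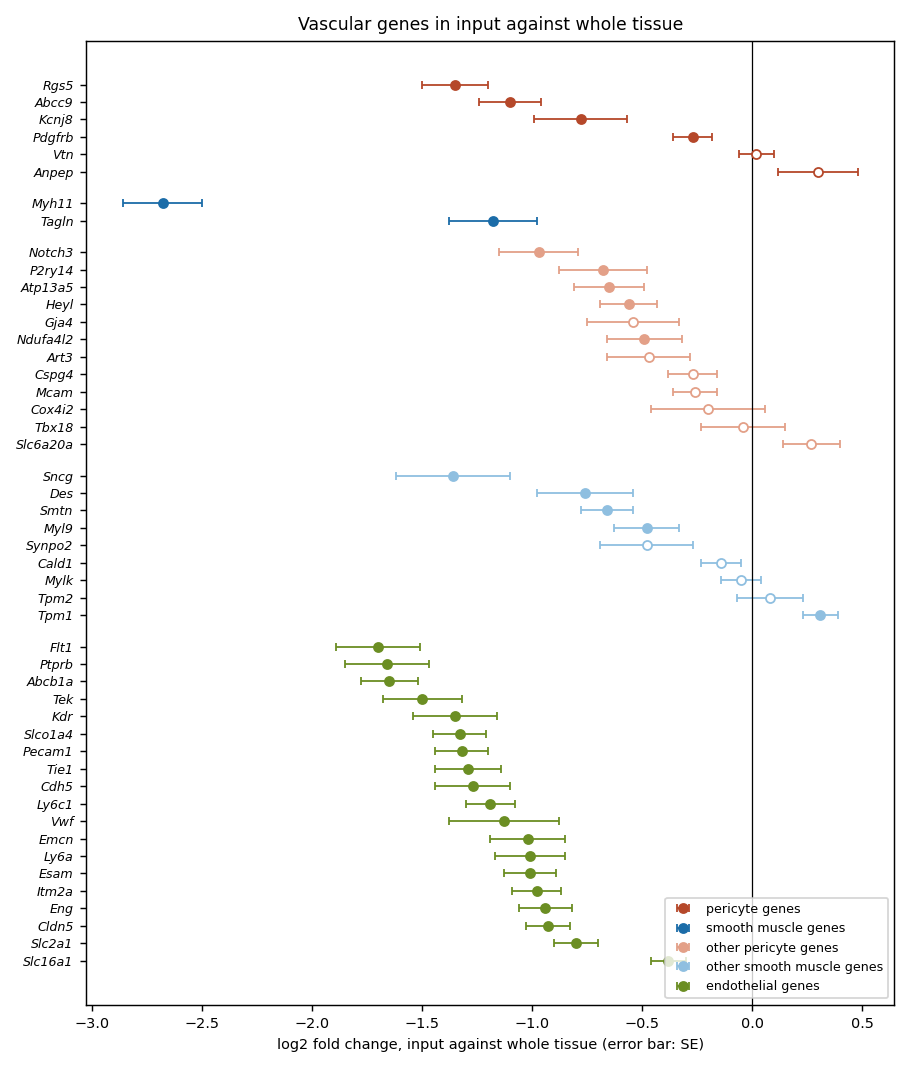
Log2 fold change of input against whole tissue in Cx3cr1-NuTRAP mice (horizontal axis) for each tested mural and endothelial gene (vertical axis). Error bars are standard errors, and filled points passed an adjusted p of 0.05. All 19 endothelial genes and 6 of the 8 chosen mural genes lay at or left of -0.27 with filled points, whereas Vtn at 0.02 and Anpep at 0.30 did not pass.

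The positive fraction of Cx3cr1-NuTRAP mice was compared with whole tissue too. Of the 8 genes, 5 were lower in it and none higher, where 24.3% of all 13470 genes tested were lower and 27.5% higher. Rgs5 had a log2 fold change of -2.20 (SE 0.33, adjusted p = 0.00015), Abcc9 of -1.72 (SE 0.22, adjusted p = 4.2e-05), Tagln of -1.39 (SE 0.26, adjusted p = 0.00075), Pdgfrb of -1.04 (SE 0.13, adjusted p = 4.4e-05) and Kcnj8 of -0.96 (SE 0.26, adjusted p = 0.0082). This comparison shares the whole tissue libraries with the one above. Myh11 averaged 12.0 ± 9.94 CPM (SD, n = 6) in the positive fraction and 12.1 ± 2.24 CPM (SD, n = 5) in whole tissue, with a log2 fold change of 0.01 (SE 0.55, adjusted p = 0.99). Of the other pericyte genes 7 of 7 tested were lower (median log2 fold change -0.99), and of 8 other smooth muscle genes 4 were lower and 1 higher (-0.54). Of the genes of other cell types, 15 of 19 endothelial (median log2 fold change -0.95), 7 of 7 oligodendrocyte (-1.37) and 5 of 5 astrocyte genes (-0.50) were lower in the positive fraction. Neuronal genes were 3 higher and 1 lower of 7 (-0.11), fibroblast and meningeal genes 2 higher and 3 lower of 10 (-0.29), and choroid plexus genes 1 lower of 8 (0.02). All 5 microglial genes (3.63), 7 border macrophage genes (3.25) and 5 nuclear noncoding RNAs (1.31) were higher. Of the border macrophage genes only 3 were testable in input against whole tissue, so the others met the filter only through the positive fraction. The part of these lists in the mural genes' difference was not tested.

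In Aldh1l1-NuTRAP mice the positive fraction carried more Pdgfrb and Myh11 and less Abcc9, Anpep and Vtn than the negative fraction. So 2 of the 8 genes were higher and 3 lower, where 26.8% of all 13319 genes tested were higher and 24.8% lower. In mouse 290, Myh11 had 14 counts in the negative fraction, and Abcc9, Anpep and Kcnj8 had 17, 13 and 14 in the positive fraction. Each of these genes met the filter of over 20 counts only through the fraction in which it was higher. The positive fractions lay above all negative fractions for 2 of the 8 and below them for 4, as they did for 21.3% and 41.7% of all genes tested. With TMM-scaled CPM the ranges of 1 of these 4, Kcnj8, overlapped. Over all genes, the 6868 calls fell to 3662 and 3587 without mouse 293 or 294, and rose to 9731 without mouse 290. With the mouse as a block, 5 were lower, because Rgs5 (log2 fold change -0.80, adjusted p = 0.0098) and Kcnj8 (-0.99, adjusted p = 0.013) were called as well, where the block called 33.8% of all genes tested lower and 37.0% higher. With counts scaled by library totals alone, the median of all genes moved from 0.04 to -0.31, all 8 genes kept their direction, and 33.6% of the calls over all genes were higher in place of 52.0%.

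Of the 6 pericyte genes, Pdgfrb alone was called higher. It measured 45.2, 51.3 and 46.2 CPM in the positive fractions of mice 290, 293 and 294 and 17.7, 22 and 19.4 CPM in their negative fractions. No other library of the series reached the lowest of these positive fractions, and the log2 fold change was 1.62 (SE 0.15, adjusted p = 0.00019). Scaled with the TMM factors, the positive fractions averaged 62.4 CPM in place of 47.6.

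Rgs5, in contrast, measured 1.84, 11.1 and 6.51 CPM in the positive and 7.27, 18.6 and 13.9 CPM in the negative fractions of the same mice. It was lower in 3 of 3 mice, while the ranges of the groups overlapped, and it was not called without the block (log2 fold change -0.68, SE 0.58, adjusted p = 0.35). Abcc9 measured 1.43, 2.29 and 2.87 CPM against 3.87, 7.87 and 6.28, and Kcnj8 measured 1.22, 2.67 and 1.33 CPM against 4.22, 5.44 and 3.38. In CPM of library totals, the positive fractions of both channel subunits lay below all negative fractions. The log2 fold change was -1.10 for Abcc9 (SE 0.36, adjusted p = 0.035) and -0.97 for Kcnj8 (SE 0.39, adjusted p = 0.072). Kcnj8 was called lower by DESeq2 (adjusted p = 0.038), with total counts (adjusted p = 0.024) and with all 6 groups in one fit (adjusted p = 0.011).

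Anpep measured 1.08, 1.90 and 1.46 CPM in the positive and 4.78, 3.87 and 4.37 CPM in the negative fractions (log2 fold change -1.17, SE 0.30, adjusted p = 0.014). Vtn measured 47.1, 36.2 and 32.5 CPM against 71.2, 78.1 and 67.1 (log2 fold change -0.55, SE 0.19, adjusted p = 0.041). Neither gene overlapped between the fractions. Without mouse 293 or without mouse 294, Abcc9, Anpep and Vtn were no longer called, with adjusted p-values from 0.055 to 0.31. Vtn was also not called with no filter on low counts (adjusted p = 0.077).

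Myh11 measured 3.29, 6.43 and 3.99 CPM in the positive and 1.59, 2.94 and 1.09 CPM in the negative fractions, without overlap. The log2 fold change was 1.61 (SE 0.44, adjusted p = 0.019), and without mouse 294 it was 1.41 with an adjusted p of 0.096. The non-muscle myosin heavy chains were higher in the same fractions, Myh9 by 1.83 (adjusted p = 0.0023), Myh10 by 1.58 (adjusted p = 0.0061) and Myh14 by 1.75 (adjusted p = 0.0021) on the log2 scale, and their part in the Myh11 counts was not tested. Tagln measured 5.28, 1.81 and 2.60 CPM against 5.92, 4.88 and 2.91, with overlap and no call (log2 fold change -0.16, SE 0.47, adjusted p = 0.79).

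Among the other pericyte genes tested in these fractions, 3 of 12 were higher and 3 lower. Higher were Notch3, at 38.9 against 11.7 CPM (log2 fold change 2.07, SE 0.29, adjusted p = 0.001), Heyl, at 49.0 against 7.89 CPM (2.96, SE 0.30, adjusted p = 0.00026), and Cox4i2, a subunit of cytochrome c oxidase, at 7.58 against 1.99 CPM (2.22, SE 0.40, adjusted p = 0.0031). Cspg4 (NG2), which oligodendrocyte precursors also make, was among the lower ones, at 5.79 against 20.5 CPM (-1.47, SE 0.28, adjusted p = 0.0036). Cox4i2 and Cspg4 were named after their values were seen. Of the 9 other smooth muscle genes tested, 3 were higher and 1 lower (median log2 fold change 0.16). Of the 19 endothelial genes 1 was higher and none lower, with a median log2 fold change of -0.33. Markers of other cells moved with these fractions, and their part was not tested. All 8 choroid plexus genes were higher (median log2 fold change 2.18), 5 of 10 fibroblast and meningeal genes were higher and 4 lower (median 0.67), and all 5 microglial genes were lower (median -2.32). Also lower were 6 of 7 oligodendrocyte genes (median -2.53), 7 of 7 neuronal genes (-1.59), 4 of 4 testable erythrocyte genes (-2.07), 4 of 5 nuclear noncoding RNAs (-1.36) and 1 of 3 testable border macrophage genes (-1.44).

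The partners of the receptor and of vitronectin were among the 18 signalling and partner genes, of which 7 were higher and 9 lower. The ligands Pdgfc (log2 fold change 1.20, adjusted p = 0.0025) and Pdgfd (2.05, adjusted p = 0.0062) were higher in the positive fraction, and Pdgfa (-0.93, adjusted p = 0.013) and Pdgfb (-1.04, adjusted p = 0.0096) were lower. The sister receptor Pdgfra, which marks oligodendrocyte precursors, was lower, at 7.82 against 45.1 CPM (-2.18, adjusted p = 0.00012). Of the integrin subunits that take part in binding vitronectin, Itgb5 (2.61, adjusted p = 7.8e-05) and Itgav (0.70, adjusted p = 0.0094) were higher and Itgb3 (-1.94, adjusted p = 0.0018) was lower. These genes were named after their values were seen.

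In Cx3cr1-NuTRAP mice the positive fraction carried more Myh11 than input, and less Pdgfrb, Rgs5, Abcc9 and Anpep. That is 1 of 8 genes higher and 4 lower, where 23.3% of all 13838 genes tested were higher and 25.6% lower. Against the negative fraction Myh11 was again the 1 gene higher, and Pdgfrb and Anpep were the 2 lower, where 12.8% of all 13776 genes tested were higher and 11.6% lower. Both comparisons share the positive fractions. Over all genes, the 3352 calls of the second fell to 1747 and 2019 without mouse 192 or 194. With the mouse as a block Rgs5 was also called lower than in the negative fraction (log2 fold change -0.70, adjusted p = 0.047), where the block called 7.98% of all genes tested lower and 9.28% higher.

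Pdgfrb ranged from 8.50 to 15.7 CPM in the positive fractions around a median of 13.7. It lay below every input, the 1 gene of the 8 to do so where 15.3% of all genes tested did, and below the median of 20.1 of the negative fractions. Its log2 fold change was -0.79 against input (SE 0.13, adjusted p = 0.0003) and -0.54 against the negative fraction (SE 0.14, adjusted p = 0.012). It was lower in 6 of 6 mice in both, and without mouse 192 the second call was lost (-0.50, adjusted p = 0.062). Anpep ranged from 2.12 to 3.54 CPM around a median of 2.61, against a median of 4.77 in the inputs and 4.88 in the negative fractions. Its log2 fold changes were -0.73 (SE 0.16, adjusted p = 0.0021) and -0.78 (SE 0.18, adjusted p = 0.0071), and it was lower in 6 of 6 mice in both.

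Rgs5 varied more, from 4.05 to 18 CPM in the positive fractions, around a median of 8.67. Its log2 fold change against input was -0.87 (SE 0.30, adjusted p = 0.028), a call lost without mouse 192, 194 or 277, with adjusted p-values of 0.069, 0.11 and 0.059, and with no filter on low counts (adjusted p = 0.059). Abcc9 measured 2.38 to 7.25 CPM around a median of 5.01, with a log2 fold change against input of -0.64 (SE 0.20, adjusted p = 0.017), which was lost without mouse 192 (-0.56, adjusted p = 0.076). Kcnj8, Tagln and Vtn were not called against either, with log2 fold changes from -0.51 to -0.16.

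**Figure D3:**
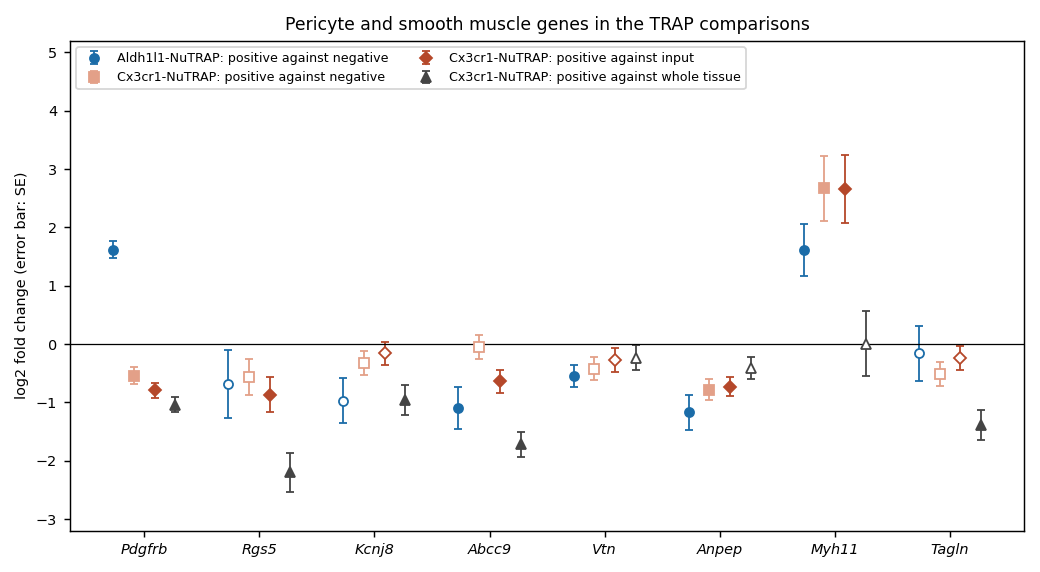
Log2 fold change (vertical axis) of 8 genes in 4 comparisons of TRAP fractions, with standard errors as error bars and filled symbols for an adjusted p under 0.05. Pdgfrb lay at 1.62 in the Aldh1l1-NuTRAP comparison and between -1.04 and -0.54 in the Cx3cr1-NuTRAP ones, and Myh11 lay at 1.61 to 2.67 in the comparisons with input or negative fraction and at 0.01 against whole tissue.

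Myh11 in the Cx3cr1-NuTRAP positive fractions was uneven between mice. It measured 24.6, 15.7, 21.6, 3.69, 1.79 and 4.61 CPM in mice 155, 192, 194, 209, 210 and 277. In the inputs and negative fractions of the 6 mice it stayed between 1.12 and 2.76 CPM. The log2 fold change was 2.66 against input (SE 0.58, adjusted p = 0.0024) and 2.67 against the negative fraction (SE 0.56, adjusted p = 0.0035). Myh11 was higher in 5 of 6 mice in both, and lower in mouse 210. Leaving out each mouse in turn gave log2 fold changes of 2.19 to 2.96 against input, all called.

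The non-muscle myosin heavy chains, which most cells use for movement and division, were high in the same libraries. In the same order of mice, Myh10 measured 3448, 1823, 3188, 300, 265 and 802 CPM in the positive fractions. Myh9 measured 1403, 760, 1476, 135, 130 and 354 CPM, and Myh14 measured 816, 487, 640, 111, 116 and 211 CPM. Mice 155, 192 and 194 held the 3 highest values of each of these genes and of Myh11. Against input, Myh9 had a log2 fold change of 2.61 (SE 0.57, adjusted p = 0.0022), Myh10 of 2.04 (SE 0.57, adjusted p = 0.01) and Myh14 of 1.80 (SE 0.45, adjusted p = 0.0057). 

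Set against the sum of Myh9, Myh10 and Myh14, Myh11 came to 0.337% to 0.675% in the 6 positive fractions, 0.202% to 0.360% in the inputs and 0.254% to 0.486% in the negative fractions. In the Aldh1l1-NuTRAP mice it came to 0.273% to 0.494% in the positive and 0.254% to 0.587% in the negative fractions. In whole tissue it came to 1.40% to 2.17%, above every other library. These are ratios of counts that were not divided by gene length. Of the 6508 windows of 42 bases in the longest GENCODE transcript of Myh11, 7.18% matched a transcript of Myh9, Myh10 or Myh14 at 90% identity or better, and 92.8% did not. The part of these paralogs in the Myh11 counts was not tested.

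**Figure D4:**
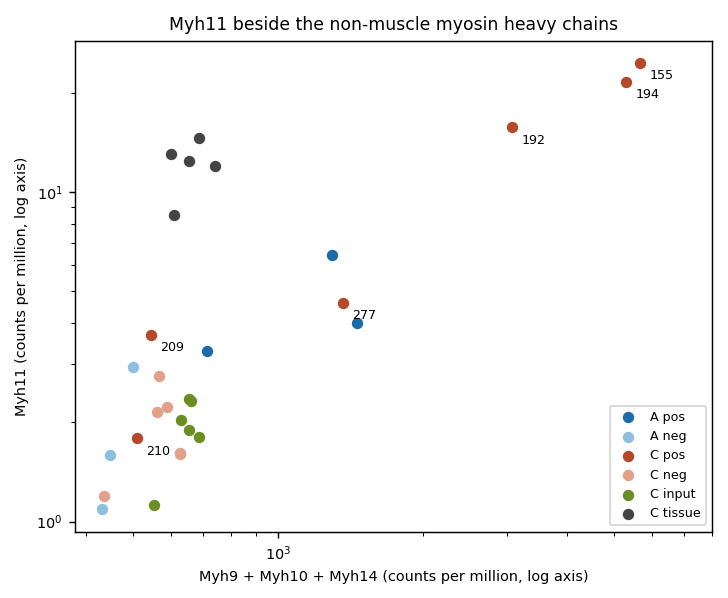
Myh11 (vertical axis) against the summed counts of Myh9, Myh10 and Myh14 (horizontal axis), both in CPM on log axes, 1 point per library, with groups abbreviated as for the plot of levels by library. Numbers name the mice of the Cx3cr1-NuTRAP positive fractions. Whole tissue libraries lay above all others of similar summed myosin, with Myh11 at 1.40% to 2.17% of that sum against at most 0.675% elsewhere.

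Pericyte genes varied between the same positive fractions as well. In mice 155, 192, 194, 209, 210 and 277, Rgs5 measured 4.05, 4.55, 6.33, 18, 11.1 and 11.0 CPM. Vtn measured 42.4, 60.8, 30.9, 82.7, 87.8 and 79.0 CPM, and Pdgfrb measured 12.3, 12.2, 8.50, 15.7, 15.4 and 15.1 CPM. Rgs5 was lowest in mouse 155, where Myh11 was highest, and Vtn and Pdgfrb were lowest in mouse 194, where Myh11 was second highest. No test was made of this, as nothing in the labels tells the mice apart.

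Over the whole positive fraction, 6 of 12 other pericyte genes were lower than in input and none higher (median log2 fold change -0.35), and of 9 other smooth muscle genes 1 was higher and 2 lower (median -0.10). Endothelial genes were 7 higher and 1 lower of 19 (median 0.22). All 5 microglial genes (median 3.52) were higher, as were all 7 border macrophage genes (median 3.13). Only 3 of these 7 were testable in negative fraction against input, so the others met the filter only through the positive fraction, where they were high. All 7 oligodendrocyte genes were lower (median -0.65). So were 4 of 5 astrocyte genes (-0.41), 5 of 10 fibroblast and meningeal genes (-0.45), 3 of 8 choroid plexus genes (-0.43) and 1 of 7 neuronal genes (-0.13), while 2 of 5 nuclear noncoding RNAs were higher (0.32) and none of 4 testable erythrocyte genes was called (-0.17). Against the negative fraction, 3 of 12 other pericyte genes (median -0.27) and 2 of 9 other smooth muscle genes (-0.25) were lower. In that comparison 7 of 7 border macrophage (3.21), 5 of 5 microglial (3.57), 5 of 19 endothelial (0.35) and 1 of 5 nuclear noncoding genes (0.39) were higher. Again, some border macrophage genes met the filter only through the positive fraction. Lower there were 7 of 7 oligodendrocyte (-0.71), 4 of 5 astrocyte (-0.50), 5 of 10 fibroblast and meningeal (-0.59), 3 of 8 choroid plexus (-0.56) and 1 of 19 endothelial genes. The part of these lists in the mural genes' differences was not tested.

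Between negative fraction and input of Cx3cr1-NuTRAP mice, Abcc9 was the 1 gene of the 8 that was lower, and none was higher, where 4.70% of all 13748 genes tested were lower and 1.41% higher. Of the calls 23.1% were higher, and 37.3% by DESeq2. The 840 calls became 3815 without mouse 155, 3 without mouse 194 and 0 by edgeR without mouse 192, 209, 210 or 277, where 2753 to 3868 genes still had an unadjusted p under 0.05. Abcc9 ranged from 3.50 to 6.04 CPM around a median of 5.40 and was the 1 gene of the 8 below every input, as were 2.71% of all genes tested (log2 fold change -0.57, SE 0.13, adjusted p = 0.032). The call was lost without mouse 192, 194, 209, 210 or 277, with adjusted p-values of 0.087 to 0.17, and with all 6 groups in one fit (adjusted p = 0.2). With the mouse as a block, 3 genes were lower and 1 higher, as Pdgfrb (-0.23, adjusted p = 0.013), Rgs5 (-0.30, adjusted p = 0.012) and Vtn (0.17, adjusted p = 0.0034) were also called, where the block called 19.5% of all genes tested lower and 17.7% higher.

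Between the lines, the negative fractions gave no call among the 8 genes by edgeR or DESeq2. Of the 8, 1 gene, Vtn, had an unadjusted p under 0.05 (log2 fold change -0.23, adjusted p = 0.21), as had 13.4% of all genes tested. Of all 13613 genes tested, 0.250% were called in either direction, 50.0% of them higher, or 28.6% of them with total counts alone. In the positive fractions Pdgfrb was higher in Aldh1l1-NuTRAP mice (log2 fold change 2.16, SE 0.17, adjusted p = 1.1e-06) and Abcc9 lower (-0.84, SE 0.33, adjusted p = 0.045), where 30.6% of all 13676 genes tested were higher and 33.1% lower. With total counts alone 31.3% of those calls were higher in place of 48.0%, and both genes kept their direction. The call on Abcc9 was lost with RLE scaling (adjusted p = 0.059), with no filter (adjusted p = 0.069) and without any 1 mouse other than 194 or 294 (adjusted p = 0.057 to 0.14). With 17 counts in the Aldh1l1-NuTRAP positive fraction of mouse 290, Abcc9 met the filter only through the Cx3cr1-NuTRAP positive fractions. Between these positive fractions all 8 choroid plexus genes (median 2.07) and 5 astrocyte genes (3.26) were higher in Aldh1l1-NuTRAP mice, and 7 border macrophage (-4.90), 5 microglial (-5.39), 7 neuronal (-1.44) and 5 nuclear noncoding genes (-1.79) were all lower. Not all 7 border macrophage genes met the filter outside the Cx3cr1-NuTRAP positive fraction, where they were high. Oligodendrocyte genes were 1 higher and 6 lower of 7 (-1.46), endothelial genes 2 higher and 7 lower of 19 (-0.60), and fibroblast and meningeal genes 4 higher and 4 lower of 10 (0.38). Other pericyte genes were 4 higher and 2 lower of 10 (0.18), and other smooth muscle genes 4 higher and 2 lower of 9 (-0.10). The part of these lists in the calls on Pdgfrb and Abcc9 was not tested. The fractions of each line share mice with the comparisons above.

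Whether the lines differed in how far a gene was enriched was tested by an interaction term. In its cytometry and staining, the paper reports a longer wait after tamoxifen for Cx3cr1-NuTRAP than for Aldh1l1-NuTRAP mice. Line and time since tamoxifen may therefore be confounded in all comparisons between the lines. Of 13983 genes, 25.5% were called higher and 29.9% lower, and with counts scaled by library totals alone 31.3% of the calls were higher in place of 46.1%. Pdgfrb differed by 2.11 on the log2 scale (SE 0.22, adjusted p = 1.8e-07), its ratio being raised in 3 of 3 Aldh1l1-NuTRAP mice and lowered in 6 of 6 Cx3cr1-NuTRAP mice. Abcc9 differed by -1.10 (SE 0.40, adjusted p = 0.027), a call lost with no filter (adjusted p = 0.053) and without mouse 192, 210, 277 or 293 (adjusted p = 0.057 to 0.14). Myh11, which was higher in the positive fraction of both lines, had a difference of -1.12 with an SE of 0.92 (adjusted p = 0.31). By the same term, other pericyte genes were 4 higher and 3 lower of 13 (median -0.13) and other smooth muscle genes 3 higher and 2 lower of 10 (0.12). All 8 choroid plexus (2.77) and 5 astrocyte genes (3.68) were higher, and all 7 border macrophage (-4.73), 5 microglial (-5.82), 7 neuronal (-1.51) and 5 nuclear noncoding genes (-2.12) were lower. Here too, not all 7 border macrophage genes met the filter outside the Cx3cr1-NuTRAP positive fraction. Oligodendrocyte genes were 1 higher and 6 lower of 7 (-2.03), endothelial genes 2 higher and 6 lower of 19 (-0.72), and fibroblast and meningeal genes 5 higher and 2 lower of 10 (0.74). The part of these lists in the differences of Pdgfrb and Abcc9 was not tested.

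Divided by the length of their exons, the genes ranked differently from their counts. In whole tissue Vtn averaged 37.2 CPM per kilobase, Rgs5 9.26, Pdgfrb 5.03, Tagln 4.09, Kcnj8 2.56, Abcc9 1.96, Myh11 1.59 and Anpep 0.884. In the Aldh1l1-NuTRAP positive fraction Vtn stood at 19.0 and Pdgfrb at 8.68 CPM per kilobase, followed by Tagln at 1.63 and Rgs5 at 1.42.

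Across the 6 groups, mean levels of Rgs5 and Abcc9 were highest in whole tissue, with no overlap with the next group, the inputs. The means of Tagln and Kcnj8 were also highest in whole tissue but overlapped the next group, the Aldh1l1-NuTRAP negative fraction. For Myh11, whole tissue averaged 12.1 CPM and the Cx3cr1-NuTRAP positive fraction 12.0 CPM, with overlap. With TMM-scaled CPM this order was reversed, at 11.8 and 12.0 CPM. For Pdgfrb the highest group was the Aldh1l1-NuTRAP positive fraction, clear of whole tissue, and the lowest was the Cx3cr1-NuTRAP positive fraction at 13.2 ± 2.79 CPM (SD, n = 6). For Anpep and Vtn the highest mean was that of the Cx3cr1-NuTRAP negative fraction, at 4.72 ± 1.12 and 86.8 ± 3.82 CPM, and the lowest that of the Aldh1l1-NuTRAP positive fraction, at 1.48 ± 0.411 and 38.6 ± 7.58 CPM (SD, n = 3). For Vtn this lowest group overlapped with the next. For Anpep it did not, but with TMM-scaled CPM it did, at 1.49 to 2.46 against 2.11 to 3.38 CPM in the Cx3cr1-NuTRAP positive fraction.

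The genes whose levels were most alike over the 29 libraries were found by Pearson correlation of log2 CPM among 14109 genes. The libraries of 1 mouse share tissue and all share the differences between fractions, so the values are descriptive. Pdgfrb was closest to Scd2, Mboat2 and Slc7a11, at 0.98 each. Rgs5 was closest to Htr2c, Vcpip1 and Ctif, at 0.92 each, and Abcc9 to Eif5a2 and Chrm2, at 0.93, and Akap12, at 0.92. Kcnj8 was closest to Enpep at 0.85, Emcn at 0.81 and Pcdhb3 at 0.80. Myh11 was closest to Ankrd11 at 0.91, Cdk12 at 0.89 and the cytoskeletal linker Dst at 0.86. Tagln was closest to Phlda3 at 0.90, Tppp3 at 0.84 and Itm2a at 0.82, Vtn to Apod at 0.87, Fam134a at 0.86 and Pcdhb12 at 0.84, and Anpep to Kcnd2 at 0.85, Gpr27 at 0.82 and Ttc7b at 0.81.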

How the data were processed

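RNA of TRAP fractions and whole tissue was sequenced as strand-specific polyA libraries. In Strand NGS, the authors aligned trimmed reads to mm10, with at least 90% identity, and counted them over RefSeq genes. The raw columns hold expected counts per gene as deposited, without normalization, and of the nonzero values 81.4% are not whole (tolerance 0.001). They were rounded before testing. The deposited log2 values, normalized by the authors with DESeq, were left aside. Each mouse was 1 replicate. Libraries were assigned to fraction and mouse by their labels. Sex is not recorded per mouse.

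A gene was tested if each library of 1 or more of the groups compared held over 20 counts of it, by the quasi-likelihood test of edgeR 4.0.16 in R 4.3.3 (two-sided, TMM scaling, trended dispersion with robust fitting), at a Benjamini-Hochberg adjusted p of 0.05 over all genes tested. The groups compared entered each fit alone, without the mouse as a block. Libraries that share a mouse number come from that mouse and are paired. Their deviations from the group means correlated above 0.1 for 3 of 3 Aldh1l1-NuTRAP mice. For Cx3cr1-NuTRAP mice they did so for 5 of 6 (negative fraction with input), 3 of 6 (positive fraction with negative fraction, and with input) and 0 of 5 (input, and positive fraction, with whole tissue). DESeq2 1.42.0, other scalings, filters and fits without single mice were the alternatives. Errors of levels are SDs over mice, and those of log2 fold changes are standard errors, taken as the fold change divided by the square root of its F statistic. The correlations used log2 CPM with a prior count of 2. Exon lengths are unions of GENCODE exons of GRCm38.

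The genes and the gene lists were chosen with earlier results of these data known. The genes named are the 9 markers, the 3 genes per list with the smallest adjusted p in input against whole tissue, and the 3 genes most correlated with each marker. The myosin heavy chains, the actins and any other gene named were picked after their values were seen.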

Additional observations from a re-analysis of the deposited data

Results flagged for a closer look

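The ratio of positive to negative fraction differed between the lines for 2 of the genes. For Pdgfrb the difference of the log2 ratios, Aldh1l1-NuTRAP minus Cx3cr1-NuTRAP, was 2.11, with log2 ratios of 1.62 and -0.54 in the lines. For Abcc9 it was -1.10, with log2 ratios of -1.10 and -0.05. The differences come from 1 fit over the 4 groups and the ratios from a fit of each line, so they do not subtract exactly.

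Among 32 sets of 1 gene in 1 group, 2 libraries lay far from the others of their group by Dixon's criterion, and chance gives about 1 in 20. Both are from mouse 155. Rgs5 in its negative fraction measured 7.48 CPM, where the next lowest measured 13.5, and Anpep in its input measured 3.15 CPM, where the next lowest measured 4.42.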

How the results depend on the processing

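Of 940 refitted values of single genes, 843 kept their direction and their side of the threshold, 41 kept their direction and lost the call, 18 gained one and 38 changed sign, none of them called before or after. The causes were not tested, except that a minimum of 100 counts leaves fewer genes to test. Anpep, Kcnj8, Myh11 and Tagln were not tested with a minimum of 100 counts, as no group reached it in all of its libraries. With that minimum the genes lower in input than in whole tissue were 3, the genes lower in the Cx3cr1-NuTRAP positive fraction than in whole tissue were 2 and than in the negative fraction 1, those higher in it than in input or negative fraction 0, those higher and lower in the Aldh1l1-NuTRAP positive fraction 1 and 1, and those lower in the Aldh1l1-NuTRAP than in the Cx3cr1-NuTRAP positive fraction, or in the difference between the lines, 0. Between the positive fractions of the lines, the genes lower numbered 0 with RLE scaling and with no filter, 3 with total counts and 2 with all 6 groups in one fit, and for the difference between the lines 0 with no filter. Over all genes, 4530 were lower between these positive fractions in the main fit, 4227 with RLE scaling and 6312 with total counts. The other counts of the 8 genes in this section are given without the share over all genes in the same fit. For negative fraction against input the genes higher and lower were 1 and 3 with the mouse as a replicate block, 1 gene was higher with DESeq2, and 0 were lower with all 6 groups in one fit. With the replicate block 5 genes were lower in the Aldh1l1-NuTRAP positive fraction. The block changed no call of the 8 genes other than those given in the report.

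Leaving out 1 mouse at a time gave 0 to 3 genes lower and 1 to 2 higher in the Aldh1l1-NuTRAP positive fraction, 2 to 4 lower than input and 1 to 2 lower than the negative fraction in the Cx3cr1-NuTRAP positive fraction, 0 to 2 lower and 0 to 1 higher in the negative fraction against input, 0 to 1 lower between the positive fractions, and 0 to 1 lower for the difference between the lines. Over all genes, negative fraction against input gave 840 calls, 5115 with the block, 2056 with DESeq2, 281 with no filter, 59 with all 6 groups in one fit and 0 to 3815 without 1 mouse. The negative fractions of both lines gave 34 calls, 517 with DESeq2, 14 with no filter and 0 to 133 without 1 mouse. Input against whole tissue gave 4144 calls, 2458 with all 6 groups in one fit and 2549 to 5618 without 1 mouse or library. Positive against negative fraction gave 3587 to 9731 calls without 1 mouse in Aldh1l1-NuTRAP mice and 1747 to 4273 in Cx3cr1-NuTRAP mice.

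Few of the sign changes were large. Myh11 in positive fraction against whole tissue turned to -0.02 with RLE scaling, -0.04 with total counts, -0.01 with no filter and with all 6 groups, -0.79 with the replicate block and -0.10 without the whole tissue of mouse 210, where Vtn in input against whole tissue turned to -0.04. Myh11 in negative fraction against input turned to -0.01 with all 6 groups and with the block, and Myh11 and Tagln between the negative fractions to -0.01 with total counts. Without 1 mouse, or without the whole tissue library of mouse 210, the log2 fold changes that changed sign ranged from -0.04 to 0.10 (Vtn, input against whole tissue), -0.51 to 0.20 (Tagln, Aldh1l1-NuTRAP fractions), -0.16 to 0.08 (Abcc9, Cx3cr1-NuTRAP positive against negative), -0.01 to 0.19 and -0.04 to 0.06 (Anpep and Myh11, negative fraction against input), -0.35 to 0.20 (Myh11, positive fraction against whole tissue), -0.79 to 0.24 and -0.21 to 0.63 (Rgs5 and Tagln, positive fractions of the lines), -0.03 to 0.09, -0.07 to 0.31, -0.54 to 0.34 and -0.20 to 0.28 (Pdgfrb, Kcnj8, Myh11 and Tagln, negative fractions of the lines), and -0.45 to 0.13 and -0.01 to 0.66 (Rgs5 and Tagln, difference between the lines).

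With TMM factors, mean levels moved by more than 1 SD in 4 cases, to 62.4 CPM for Pdgfrb, 51.0 for Vtn and 1.95 for Anpep in the Aldh1l1-NuTRAP positive fraction and 82.5 for Vtn in the Cx3cr1-NuTRAP negative fraction. The whole tissue of mouse 210 held 14 counts of Anpep, 17 of Tagln, 36 of Myh11 and 45 of Kcnj8, so its values for these genes carry more counting error than those of the deeper libraries.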
